A study of Gallus gallus with 2 samples.

Results

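The abundant long non-coding RNAs (lncRNAs) of chicken breast muscle were taken as the listed transcripts that reached 50 RPKM in 1 or both of 2 libraries. RPKM counts reads per kilobase of length and M reads of depth. Of 21993 listed transcripts, 502 (2.28%) met this limit. The libraries were made from breast muscle of White Recessive Rock birds (WRR, labelled fast-growing) and Xing Hua birds (XH, a native Chinese strain labelled slow-growing). All birds were females of 7 weeks, kept in 1 space but in different cages on the same diet, and body weight was 625.3 ± 12.0 g in WRR and 328.5 ± 10.6 g in XH (the kind of error is not named). Muscle RNA of 4 birds was pooled in equal amounts for each strain, ribosomal RNA was removed, and 1 strand-marked library per strain was sequenced, so that a strain is represented by a pool and not by replicates. The values that chose the members are the same RPKM values that are set side by side here. They are therefore given as a description of 2 libraries, with no test and no p-value. The exact 95% intervals beside ratios and shares come from the read counts (Clopper-Pearson) and reflect counting alone. They leave out variation between birds, pools and library preparations. Without molecular identifiers, reads cannot be counted as independent molecules. Intervals beside median log2 ratios are order statistics over transcripts of the same 2 libraries. These treat transcripts as independent, which neighbours may not be, and transcripts are not replicates of a strain.

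LncRNAs are long RNAs without a recognised protein-coding frame, and most of them are present at far lower levels than messenger RNAs. Known ones act as scaffolds or decoys for proteins and microRNAs, mark active enhancers, regulate neighbouring genes or serve as precursors of small RNAs. In mouse muscle, linc-MD1 binds microRNAs during differentiation, H19 is strongly expressed during muscle development, and some transcripts first listed as lncRNAs were found to encode micropeptides such as myoregulin. A library made by ribosomal RNA depletion also keeps RNAs that have no poly(A) tail. The table names no gene, strand or sequence, so the transcripts are given by their position in the chicken build galGal4. Known genes near them, markers of muscle and of other cell types, and the class of RNA they belong to were not analysed here.

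As deposited, more of the abundant transcripts reached the limit in XH than in WRR, and this turned round when XH was scaled to the median of all transcripts (151 in WRR only and 24 in XH only). The limit was met in both libraries by 207 transcripts (41.2% of the 502), in WRR only by 71 (14.1%) and in XH only by 224 (44.6%). Counted by library, 278 transcripts had at least 50 RPKM in WRR and 431 in XH. The members had a median of 55.1 RPKM in WRR (quartiles 29.8 and 107) and of 70.9 RPKM in XH (54.3 and 110). Directions in what follows are those of the deposited RPKM unless a scaling is named. In these pooled tissue samples, fewer cells of a type and less RNA per cell cannot be told apart.

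Most transcripts at the limit in 1 library only had at least 25 RPKM in the other, and as deposited most also differed by 2-fold or more. Of the 71 transcripts at the limit in WRR only, 53 had 25 to below 50 RPKM in XH, 16 had 10 to below 25, and 2 had 5 to below 10. Of the 224 at the limit in XH only, 123 had 25 to below 50 RPKM in WRR, 82 had 10 to below 25, 13 had 5 to below 10 and 3 had 1 to below 5. The remaining 3 had no listed reads in WRR. A difference of 2-fold or more was found for 48 of those 71 (67.6%) and for 153 of those 224 (68.3%). The limit fixed the direction of these ratios, so the shares are not compared with each other. Among all transcripts from 0.5 RPKM, WRR exceeded XH by this much in 9.45%, while XH exceeded WRR in 46.9%. The limit itself cut through a continuous range. Just inside it lay a 463-base transcript at chr3:55812152-55812614, with 46.0 RPKM in WRR, against 50.1 RPKM in XH. A 338-base transcript on the unplaced scaffold chrUn_AADN03019027, 10 to 450, had 50.1 RPKM in WRR, against 15.7 RPKM in XH, and a 1142-base one on chrUn_JH376365, 482 to 1623, had 29.8 RPKM in WRR, against 50.2 RPKM in XH. Just outside it lay transcripts at chr11:6860843-6863668 (20.2 RPKM in WRR, against 49.996 RPKM in XH), chr12:19415069-19415299 (49.97 RPKM in WRR and 17.4 RPKM in XH) and chr4:15530263-15534016 (22.5 RPKM in WRR and 49.93 RPKM in XH).

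Sharing between the libraries was highest among the most abundant transcripts. Among the 13 transcripts at 1000 RPKM or more in the higher library, 12 were above 50 RPKM in both libraries. The count was 31 of 34 from 300 to below 1000 RPKM, 119 of 153 from 100 to below 300, and 45 of 302 from 50 to below 100. In the lowest of these bands 53 transcripts met the limit in WRR only and 204 in XH only. A transcript far above the limit in 1 library can drop several-fold in the other and still pass, so this order follows in part from the limit.

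The head of the rank order was held in common. WRR and XH shared 7 of their top 10 transcripts by RPKM, 32 of their top 50, 58 of their top 100 and 120 of their top 200. All of the WRR top 10 lay within rank 53 in XH. The XH top 10 in turn held a 382-base transcript, on chrUn_AADN03013023, that ranked 3121 in WRR. Over the 502 members, which come from the same 2 libraries and were chosen on these values, Pearson's r of the log2 values was 0.54 and Spearman's rho was 0.36. Over the 207 members at the limit in both, r was 0.77 and rho was 0.45.

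Chromosome 1 supplied the highest values, from a closely spaced pair of transcripts. The 828-base transcript at chr1:100373872-100374699 had 184475 reads (23594 RPKM, rank 1) in WRR, against 50320 reads (7878 RPKM, rank 4) in XH. The 973-base transcript at 100377687-100378659 had 213494 reads (23236 RPKM, rank 2) in WRR, against 32267 reads (4299 RPKM, rank 5) in XH. Both were higher in WRR, and reads covered 99.88% and 96.09% of their lengths there. Summed over the pair, the reads per total were 3.94-fold higher in WRR (3.91 to 3.97). Of the other members within 30 kb, the 524-base transcript at 100354453-100354976 had rank 6 in both libraries, with 3179 RPKM in WRR, against 2041 RPKM in XH. The 415-base transcript at 100387913-100388327 had rank 7 in both, with 2721 RPKM in WRR, against 1145 RPKM in XH. The 298-base one at 100351241-100351538 was higher in WRR too, with 221 RPKM in WRR, against 46.1 RPKM in XH. The other 2 ran the opposite way. They were 234 bases at 100381888-100382121, with 55.2 RPKM in WRR, against 595 RPKM in XH, and 219 bases at 100398905-100399079, with 322 RPKM in WRR, against 640 RPKM in XH. The interval of the last spans 175 bases, fewer than the length listed for it, for a reason not given.

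The next ranks were taken by very short transcripts. XH had its highest value, 16046 RPKM from 29462 reads, at the 238-base transcript at chr9:9640866-9641103, which had 5913 RPKM from 13289 reads and rank 5 in WRR. Reads covered 66.81% of this transcript in WRR, against 95.80% in XH. A 208-base transcript on the unplaced scaffold chrUn_JH375732, 3966 to 4173, had rank 3 in WRR with 15375 RPKM and rank 2 in XH with 9307 RPKM. The 239-base transcript at chr7:21668027-21668265 had rank 4 in WRR with 10129 RPKM and rank 3 in XH with 8403 RPKM. Of these 3, the chromosome 9 transcript alone was lower in WRR, by 2.71-fold (2.66 to 2.77).

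**Figure D1:**
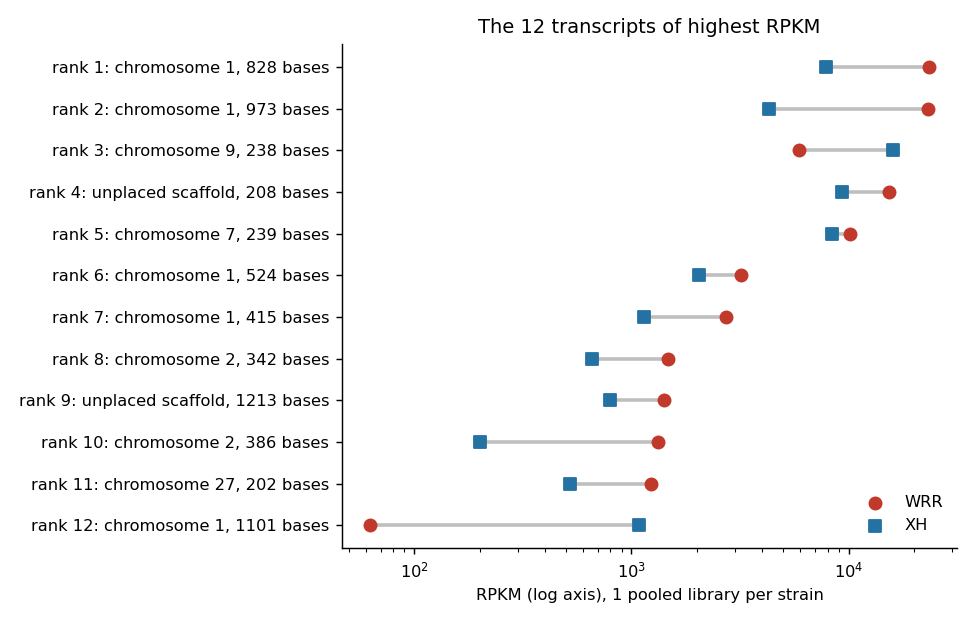
RPKM on a log axis of the 12 transcripts with the highest value in either library, from 1 pooled library of WRR (circles) and 1 of XH (squares), with no error bars because there are no replicates. The first 2 lie at 23594 and 23236 RPKM in WRR, and the 12th, on chromosome 1, has 62.2 RPKM in WRR, against 1077 RPKM in XH.

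Ranks 8 to 12 included a second adjacent pair. On chromosome 2, the 342-base transcript at 107604709-107605050 had 1470 RPKM in WRR, against 656 RPKM in XH, and the 386-base transcript at 107606110-107606495 had 1320 RPKM in WRR, against 201 RPKM in XH. Both were higher in WRR, by 2.24-fold (2.12 to 2.37) and 6.56-fold (6.03 to 7.16). The second of them was covered over 99.74% of its length in WRR, against 64.51% in XH. A 202-base transcript at chr27:4229710-4229911 had 1230 RPKM in WRR, against 520 RPKM in XH, and a 1213-base transcript on chrUn_JH376058, 1103 to 2315, had 1419 RPKM in WRR, against 798 RPKM in XH. The 12th ran the other way. This 1101-base transcript at chr1:32562913-32564013 had 647 reads (62.2 RPKM, rank 221) in WRR, against 9152 reads (1077 RPKM, rank 8) in XH, 17.3-fold lower in WRR (16.0 to 18.8). Its nearest listed neighbour was 377339 bases away.

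Some abundant transcripts stood at close levels in the libraries as deposited. Among the 21 members at 300 RPKM or more in both, the 3 with ratios nearest 1 were a 332-base transcript on chrUn_AADN03025794, 2 to 333, a 1322-base one at chr4:1959343-1960664, and a 375-base transcript whose interval is chr20:5869977-5871314. The first had 305 RPKM in both libraries, with a ratio of WRR over XH of 0.999 (0.908 to 1.10). The chromosome 4 transcript had 386 RPKM in WRR, against 390 RPKM in XH, giving 0.990 (0.949 to 1.03). On chromosome 20 the values were 368 RPKM in WRR, against 317 RPKM in XH, with a ratio of 1.16 (1.07 to 1.27). These 3 were picked for ratios near 1, so nothing is read from their intervals. Relative to the median of all transcripts, their log2 ratios were 0.91, 0.90 and 1.13, so the closeness holds for the deposited scale only.

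Differences past 2-fold were common among the members in both directions. On the scale log2((WRR + 0.1) / (XH + 0.1)) of the RPKM values, 88 of 502 members (17.5%) were higher in WRR by 2-fold or more, 174 (34.7%) were lower in WRR by as much, and 240 lay within 2-fold. Over all 21625 transcripts with 0.5 RPKM or more in either library, 9.45% were higher in WRR by 2-fold or more and 46.9% lower. The median log2 ratio was -0.67 for the members (95% interval from order statistics -0.78 to -0.52) and -0.92 for all those transcripts. Relative to the median of all, that of the members was 0.24, with 163 members (32.5%) at least 2-fold higher in WRR and 57 (11.4%) at least 2-fold lower, beside 22.3% and 20.3% of all. Which direction is the more frequent among the members thus turns with the scaling. The rule used the same 2 values, so nothing is read from these shares.

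Among members, the 6 highest log2 ratios ran from 2.71 to 3.21. The highest belonged to a 223-base transcript at chr1:193533620-193533842, with 126 reads (59.8 RPKM) in WRR, against 11 reads (6.39 RPKM) in XH, 9.36-fold higher in WRR (5.06 to 19.2). Deeper read counts stood behind a 316-base transcript on chrUn_AADN03025157, 380 to 695, with 935 reads (313 RPKM) in WRR, against 101 reads (41.4 RPKM) in XH. It was 7.56-fold higher in WRR (6.15 to 9.38). A 410-base transcript at chr12:3500116-3500525 had 1190 reads (307 RPKM) in WRR, against 144 reads (45.5 RPKM) in XH, 6.75-fold higher in WRR (5.67 to 8.08). A further 2 lay on unplaced scaffolds, and the sixth was the 386-base transcript on chromosome 2 described above.

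At the other end, 3 members had no listed reads in WRR. They were a 1399-base transcript at chr4:13706488-13707886, with 610 reads (56.5 RPKM) in XH, a 205-base one at chr1:141598775-141598979, with 101 reads (63.9 RPKM), and a 305-base one at chr1:162396146-162396450, with 121 reads (51.4 RPKM). Against a floor of 3 reads in the WRR library they were at least 249-fold, 41.2-fold and 49.4-fold lower in WRR. The exact 95% intervals, which also carry the counting error of the XH reads, begin at 202-fold, 32.9-fold and 39.5-fold. The XH reads covered 99.64%, 69.27% and 95.41% of their lengths. The other 3 of the 6 lowest had reads in both libraries. On chrUn_AADN03013023, 1024 to 1405, a 382-base transcript had 30 reads (8.32 RPKM) in WRR, against 2960 reads (1004 RPKM) in XH, 121-fold lower in WRR (84.4 to 179). A 1608-base transcript on chrUn_JH376396, 31029 to 32636, had 280 reads (18.4 RPKM) in WRR, against 7022 reads (566 RPKM) in XH, 30.7-fold lower in WRR (27.2 to 34.7). A 216-base transcript at chr1:82571205-82571420 had 4 reads in WRR and 98 in XH, 29.99-fold lower in WRR (11.3 to 112).

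**Figure D2:**
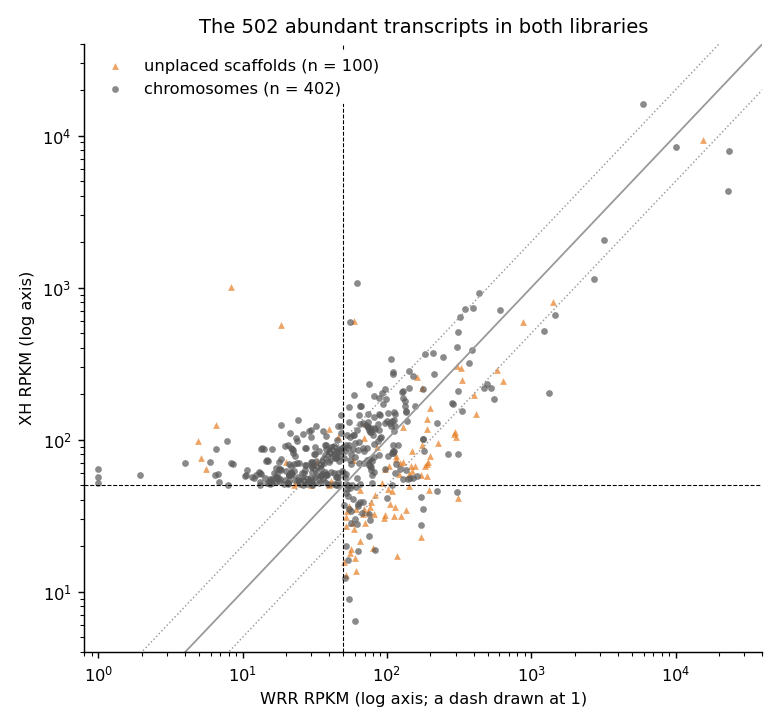
RPKM of the 502 abundant transcripts in WRR (horizontal) and XH (vertical), both on log axes, with the 3 transcripts without WRR reads drawn at 1. Triangles are the 100 transcripts on unplaced scaffolds and circles the 402 on chromosomes, dashed lines mark 50 RPKM, the solid line equal values and dotted lines 2-fold. The empty lower left corner is the result of the rule, and most triangles lie on the WRR side of the solid line.

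By reads summed over the 2 libraries, rather than by RPKM, long members moved up the order. The members at the limit in WRR only with the most reads were a 1186-base transcript at chr9:8446953-8452868 (1131 reads in WRR and 377 in XH), a 2166-base one at chr6:7515432-7517597 (1126 reads in WRR and 587 in XH), and a 1935-base one at chr1:79539675-79541609 (1015 reads in WRR and 719 in XH). The last of these had 55.5 RPKM in WRR, against 48.2 RPKM in XH, so that it missed the limit in XH by little. Among those at the limit in XH only, the most reads lay on an 18722-base transcript at chr1:82353506-82372227, with 4749 reads (26.9 RPKM) in WRR, against 7706 reads (53.4 RPKM) in XH. It was also the longest member. Next came the 1608-base transcript named above, and a 7977-base one at chr8:7355468-7363444, with 3217 reads (42.7 RPKM) in WRR, against 4768 reads (77.5 RPKM) in XH. Its neighbour of 7805 bases at 7371924-7379728 had 76.7 RPKM in WRR, against 74.7 RPKM in XH. The remaining one of the 4 longest, 8167 bases at chr1:36403164-36411330 had 30.4 RPKM in WRR, against 50.3 RPKM in XH.

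The members carried a large part of the reads. They held 883809 of 1846031 listed reads in WRR (47.9%, 47.8 to 47.9%) and 571594 of 1883727 in XH (30.3%, 30.3 to 30.4%). Of the total that the header gives for each library, 9.44 M for WRR and 7.71 M for XH, this was 9.36% in WRR, against 7.41% in XH. A few members made up most of it. In WRR 4 members held 50% of the members' reads and 140 held 90%. In XH it took 21 members and 208 members. The 13 transcripts at 1000 RPKM or more held 28.1% of the listed reads in WRR, against 9.40% in XH. The pair on chromosome 1 held 21.6% in WRR, against 4.38% in XH. Without that pair, the direction turned for the share of the header total but not for the share of listed reads. The other 500 members held 26.3% of all the reads listed in WRR, against 26.0% in XH. Of the header total they held 5.15% in WRR (485840 reads), against 6.34% in XH (489007 reads), a ratio of 0.812 (0.808 to 0.815). With the pair this ratio was 1.26 (1.26 to 1.27). This removal was chosen after the values had been seen.

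Long members were among those with the most reads. The 3973-base transcript whose interval is chr4:59670896-59676554 had 22669 reads (604 RPKM) in WRR, against 21751 reads (710 RPKM) in XH. The 3719-base transcript at chr3:26093194-26096912 had 10928 reads (311 RPKM) in WRR, against 14663 reads (511 RPKM) in XH. The 2450-base transcript at chr7:7407417-7409866 had 8010 reads (346 RPKM) in WRR, against 13649 reads (722 RPKM) in XH. All 3 were covered over at least 99.96% of their length in both libraries. The 57 members of 2000 bases or more held 8.82% of the listed reads in WRR, against 10.2% in XH, and 1 of them (1.75%) was at least 2-fold higher in WRR and 20 (35.1%) at least 2-fold lower, beside 2.23% and 42.1% of all transcripts of that length.

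Abundant transcripts were short. Their median length was 485 bases (quartiles 303 and 1077), beside 844 bases for all listed transcripts (568 and 1270). Under 250 bases there were 72 members (14.3%), beside 584 of all listed (2.66%). Read the other way, 12.3% of listed transcripts of 200 to below 250 bases were abundant, 0.968% of those of 700 to below 1000 bases and 2.62% of those of 2000 to below 4000 bases, so that the share was lowest at middle lengths. At the head of the order, 4 of the 13 transcripts at 1000 RPKM or more were under 250 bases and the longest had 1213 bases. Length enters the RPKM as a divisor and was thus used by the rule. Members at the limit in WRR only had a median of 343 bases, those in XH only 564 and those in both 506.

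**Figure D3:**
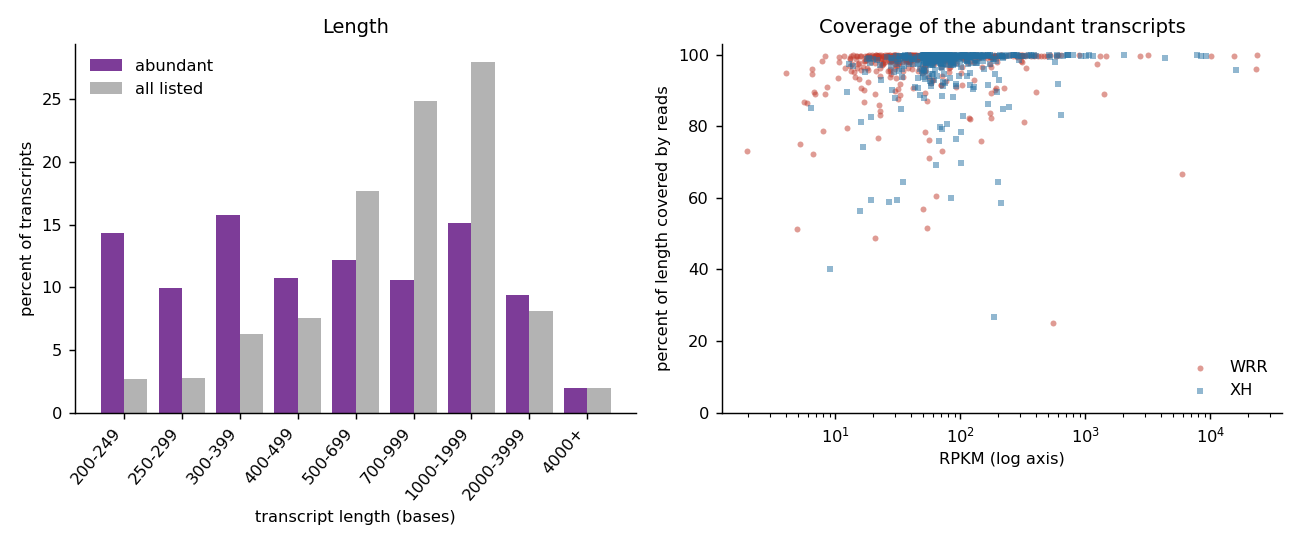
Left, the percent of the 502 abundant and of all 21993 listed transcripts in each class of length. Right, the percent of each abundant transcript's length covered by reads against its RPKM on a log axis, in WRR (circles) and XH (squares); most points lie near the top, and 1 transcript lies at 24.95% in WRR, against 26.70% in XH.

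Reads covered nearly the whole of most members. The median coverage was 99.49% in WRR, against 99.48% in XH, beside 79.9% in WRR and 89.5% in XH for all listed transcripts with a dash counted as 0. The deposited coverage never passed all bases but 1 of a transcript, and 208 members in WRR and 177 in XH stood at that ceiling (tolerance 0.011 points). More reads give more coverage, so this too follows from the rule. The exceptions were few. In the library where it was higher, 23 members were covered over less than 90% of their length, 12 of them on unplaced scaffolds, and 6 over less than 75%.

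The least covered member was a 3030-base transcript whose interval is chr1:179739071-179743316. It had 15747 reads (550 RPKM) on 24.95% of its bases in WRR, against 4346 reads (186 RPKM) over 26.70% in XH, 2.96-fold higher in WRR (2.86 to 3.06). Counted over covered bases alone, its density was 2206 RPKM in WRR, against 696 RPKM in XH. Next came a 332-base transcript on a scaffold of chromosome 21, with 170 reads over 51.51% in WRR and 23 reads over 40.06% in XH. The 338-base one on chrUn_AADN03019027 had 160 reads over 56.80% in WRR and 41 reads over 56.21% in XH. The fourth was a 707-base transcript whose interval spans chr22:1291339-1319265, with 423 reads over 60.40% in WRR and 198 reads over 99.86% in XH. Its larger number of WRR reads thus lay on less of its length. In 5 members, 4 of them higher in WRR and 1 higher in XH, the coverage was 10 points or more less in the higher library. The opposite, less coverage by 10 points or more in the lower library, was found in 37, and 460 members were within 10 points.

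Unplaced scaffolds held 100 of the 502 members (19.9%) and 1149 of all listed transcripts (5.22%). Linkage groups without a chromosome number are included, with 3 members. These 100 lay on 97 scaffolds, so that few were neighbours. They had a median of 99.7 RPKM in WRR (quartiles 57.1 and 175) and of 61.2 RPKM in XH (35.0 and 104). Their median log2 ratio was 0.97 (0.72 to 1.16). A 2-fold or larger excess in WRR was counted for 48 of them and in XH for 13. Over all 1147 transcripts of this class that reached 0.5 RPKM, 23.7% and 33.0% were at least 2-fold higher and lower in WRR, and the median was -0.20. Unplaced scaffolds made up 38 of the 71 members at the limit in WRR only, and 17 of the 224 in XH only.

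On chromosomes the members leaned to XH as deposited, as did all transcripts there. The 402 members there had a median of 48.0 RPKM in WRR, against 72.7 RPKM in XH, with a median log2 ratio of -0.85 (-0.96 to -0.74). At least 2-fold differences were counted in 40 members higher (9.95%) and 161 lower (40.0%) in WRR. Of all transcripts on chromosomes from 0.5 RPKM, 8.65% were higher and 47.7% lower by as much, with a median of -0.94. With ratios taken relative to the median over all transcripts, the unplaced members stood at 1.88 and 75 of them were higher in WRR by 2-fold or more and 7 lower. A scaling shifts all ratios by nearly the same amount, so it leaves the gap between the classes as it is by construction, while the median of the members on chromosomes became 0.02 with TMM factors. Chromosomes 1-5 held 44.0% of members and 54.7% of all listed transcripts, chromosomes 6-10 held 14.7% and 16.6%, and chromosomes 11-28 held 17.9% and 19.2%. Their members' median log2 ratios were -0.92, -0.97 and -0.23, beside -1.05, -0.92 and -0.51 over all transcripts there from 0.5 RPKM. The 16 members on Z had a median of -0.95, with 8 at least 2-fold lower in WRR and none higher, beside 56.6% lower, 3.43% higher and a median of -1.15 over all transcripts on Z. The 1 member on W had 109 RPKM in WRR, against 133 RPKM in XH.

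**Figure D4:**
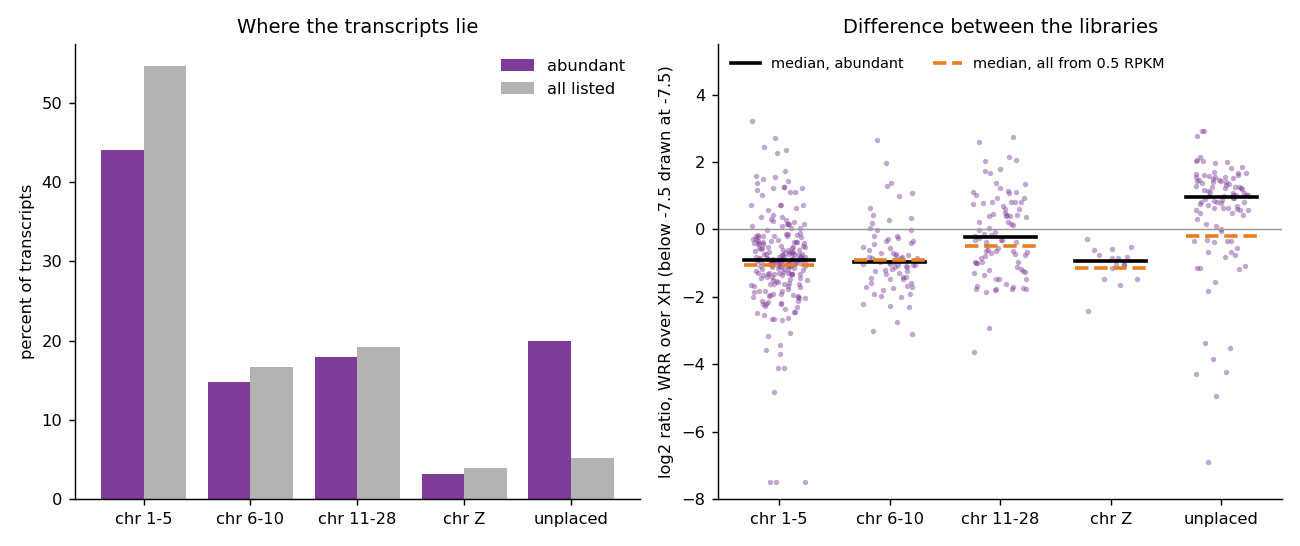
Left, the percent of the 502 abundant and of all listed transcripts on each class of chromosome. Right, the log2 ratio of WRR over XH of each abundant transcript (points), their median (black lines) and the median of all transcripts of the class that reached 0.5 RPKM (dashed lines); the medians of unplaced scaffolds are 0.97 and -0.20, and the single member on W is not drawn.

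Single chromosomes differed in how many of their listed transcripts were abundant, beside 2.28% of all listed. The share was 10% on chromosome 16 (3 of 30), 8.00% on chromosome 25 (4 of 50), 4.89% on chromosome 18 (11 of 225), 4.11% on chromosome 28 (6 of 146) and 3.17% on chromosome 8 (22 of 693). Chromosome 24 had no member among 109. Chromosome 1, with the most members, stood at 2.55% (99 of 3883). The chromosomes named are a selection, some of the shares rest on few members, and neighbours in clusters are not counted as independent. On chromosome 4, 20 of 29 members were at least 2-fold lower in WRR and 3 higher, beside 52.6% lower and 7.16% higher of all transcripts there. Of those 20, 10 lay in 1 cluster of 13.6 kb. On chromosome 18, 6 of 11 were lower and none higher, beside 35.5% and 15.9%.

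A gapped transcript is one whose genomic interval is longer than the transcript, as a spliced RNA would have. All others are called contiguous, also where the interval is shorter than the listed length. Gapped transcripts made up 78 of the members (15.5%) and 1064 of all listed (4.84%). On unplaced scaffolds 42 of 100 members were gapped, beside 17.4% of all transcripts there from 0.5 RPKM. On chromosomes 36 of 402 members (8.96%) were gapped, beside 4.04% of all from 0.5 RPKM. The gapped members had a median log2 ratio of 0.82 (0.48 to 1.10) and the contiguous ones of -0.81 (-0.91 to -0.71), beside 0.053 and -0.95 for all gapped and contiguous transcripts past 0.5 RPKM. On chromosomes alone these were 0.068 (-0.68 to 0.80) and -0.89 (-0.98 to -0.79), beside -0.17 and -0.95 for all those listed there. None of the 13 members at 1000 RPKM or more was gapped. Intervals of 16 members (3.19%) overlapped another listed transcript, and reads there may be counted for both entries. Without strand in the table, overlapping entries cannot be separated from antisense partners.

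Most abundant transcripts stood alone, and the others lay in clusters, mostly pairs. Joined where neighbouring members were at most 10 kb apart, 191 members (38.0%) fell into 62 clusters, of which 42 had 2 members and 20 had 3 or more. The other 311 members stood alone. Chromosome 1 held 15 clusters with 63 members. In 40 clusters every member was higher in XH, in 7 every member was higher in WRR, and 15 held both directions. Over all transcripts from 0.5 RPKM the median log2 ratio was -0.92, with 46.9% at least 2-fold higher in XH and 9.45% in WRR. Directions in clusters of all listed transcripts were not counted, so nothing is read from this split. Whether the members of 1 cluster come from 1 longer RNA was not tested, so they are not counted as independent. Within the clusters of 3 or more, the log2 ratios spanned a median of 1.35. The clustered members had a median log2 ratio of -0.94 and those alone of -0.35. Unplaced scaffolds, whose members had a median of 0.97, held 6 of the 191 clustered members (3.14%) and 94 of the 311 alone (30.2%). The part of the scaffolds in this difference was not tested. A listed transcript of any level lay within 10 kb of 68.1% of members, beside 83.4% of all listed transcripts. A transcript alone on its scaffold was counted as without a neighbour. Unplaced scaffolds held 19.9% of members and 5.22% of all listed transcripts.

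The cluster with the most members lay at chr1:138578065-138597406, with 11 abundant transcripts of 210 to 388 bases among 13 listed ones in 19.3 kb. They had 14.7 to 46.1 RPKM in WRR and 53.8 to 123 RPKM in XH, and all 11 met the limit in XH only. All 11 had serial numbers from 11942 on (run C, described below). Of them, 9 were at least 2-fold lower in WRR, beside 76.1% of all transcripts of that run. The member with the most reads, 388 bases at 138587025-138587412, had 169 reads in WRR and 367 in XH. Summed reads per total were 2.96-fold lower in WRR (2.72 to 3.22). A second cluster on the same chromosome, 51805797-51815361, had 10 members of 216 to 816 bases, and no other listed transcript lay between them. All 10 were abundant in both libraries, with 75.9 to 178 RPKM in WRR and 113 to 277 RPKM in XH. Of the 10, 9 were higher in XH but only 2 past 2-fold, and the sum was 1.60-fold lower in WRR (1.54 to 1.67). All 10 were in run C too, where 76.1% of all transcripts were at least 2-fold lower in WRR.

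On chr4:62697080-62710684, 10 of 12 listed transcripts were abundant, all in XH only. They had 5.92 to 29.6 RPKM in WRR and 50.4 to 115 RPKM in XH. All 10 were at least 2-fold lower in WRR, beside 52.6% of all transcripts on chromosome 4. Its most read member, 2083 bases at 62708602-62710684, had 583 reads (29.6 RPKM) in WRR, against 1851 reads (115 RPKM) in XH. The sum was 4.36-fold lower in WRR (4.13 to 4.61). The fourth cluster, at chr3:55800742-55822010 had 9 members with 38.0 to 114 RPKM in WRR and 50.1 to 147 RPKM in XH. Of these, 3 met the limit in both libraries and 6 in XH only, and the sum was 1.37-fold lower in WRR (1.29 to 1.46). At least 2-fold lower in WRR were 2 of the 9. All 9 were in run B (described below), where 15.9% of all transcripts were lower by as much. The rule used these values, so nothing is read from the folds of the clusters.

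**Figure D5:**
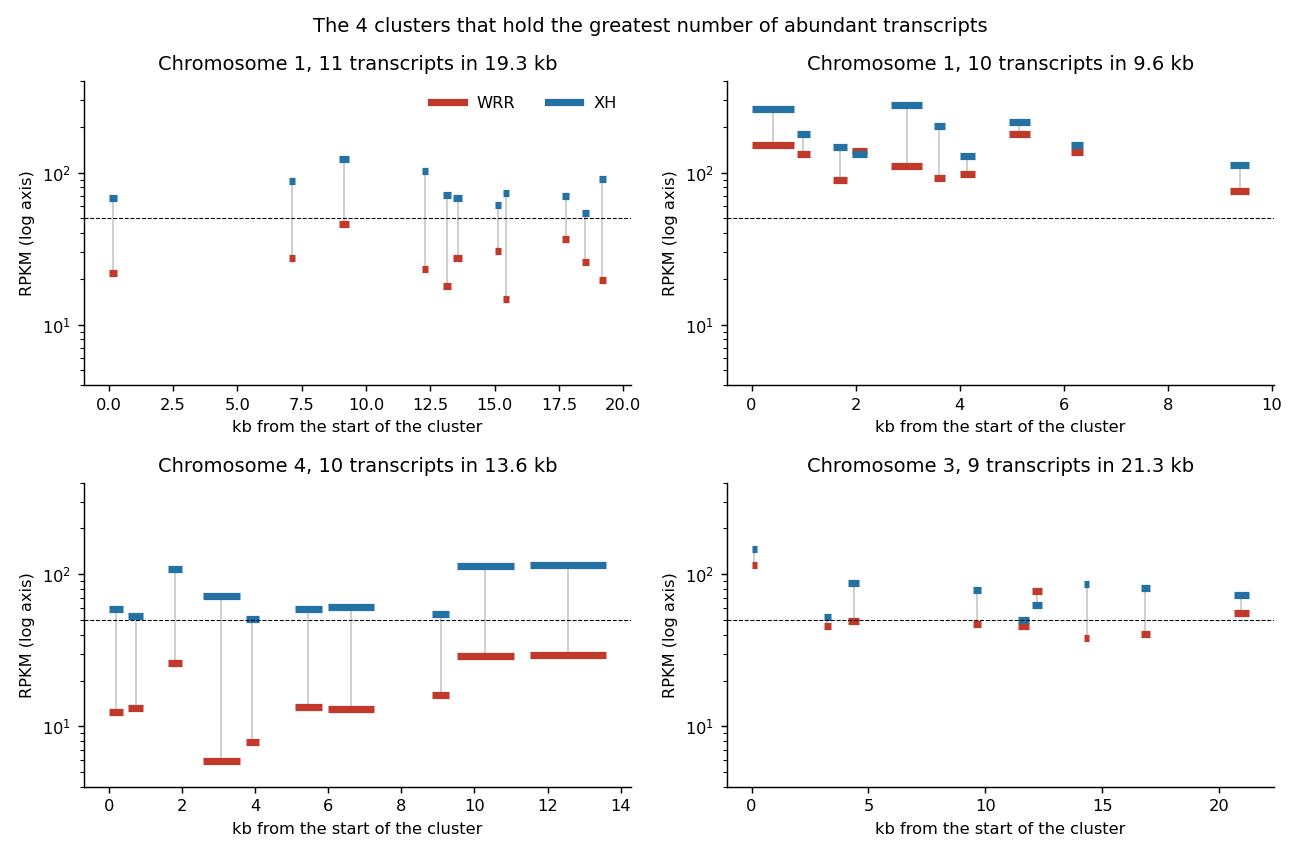
RPKM on a log axis of each abundant transcript in the 4 clusters with the most members, drawn at its distance in kb from the start of the cluster, as a flat bar as wide as the transcript for WRR (red) and for XH (blue), joined by a grey line. The dashed line marks 50 RPKM; in the cluster on chromosome 4 every WRR bar lies below it (5.92 to 29.6 RPKM) and every XH bar above it (50.4 to 115 RPKM).

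Further clusters showed the range. With a gap of 50 kb allowed, a stretch of chromosome 1 from 113778011-113898181 held 20 members of 204 to 451 bases, with 13.4 to 86.5 RPKM in WRR and 34.1 to 111 RPKM in XH. In that stretch 4 members were higher in WRR and 16 in XH, 9 of them past 2-fold. Over all transcripts from 0.5 RPKM, 46.9% were at least 2-fold higher in XH and 9.45% in WRR. The 3 members at chr2:129040553-129055684 had 3.99 to 13.2 RPKM in WRR and 58.2 to 70.1 RPKM in XH, and their sum was 10.1-fold lower in WRR (8.85 to 11.5). At chr8:11004852-11014519, 5 members had 48.2 to 63.9 RPKM in WRR and 86.4 to 195 RPKM in XH. At chrZ:53584358-53592719, 5 members had 36.1 to 74.2 RPKM in WRR and 83.0 to 131 RPKM in XH. The 4 members at chr21:3431572-3436586 had 68.5 to 96.9 RPKM in WRR and 51.6 to 88.2 RPKM in XH, a sum 1.28-fold higher in WRR (1.17 to 1.40). Neighbours did not always run together. At chr11:6829125-6846763, 1 of 5 members was at least 2-fold higher in WRR and 3 were lower, with log2 ratios from -3.63 to 2.06. In the cluster of the pair with the most reads, the 234-base transcript described above ran opposite to its 3 neighbours.

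The serial numbers of the transcripts fall into 3 runs, read from the order of chromosomes along them, and the members' ratios differed between the runs, as did those of all transcripts. The sources used here do not say how the runs arose. Numbers up to 3658 (A) held 156 members with a median log2 ratio of 0.46 (-0.0069 to 0.70), 50 of them at least 2-fold higher and 30 lower in WRR, beside 5.15% and 26.6% of all transcripts of that run (median -0.56). Numbers 3659 to 11941 (B) held 214 members with a median of -0.73 (-0.86 to -0.61), 20 higher and 74 lower in WRR by 2-fold or more, beside 23.6% and 15.9% of all (median 0.057). Numbers from 11942 on (C) held 132 members with a median of -1.07 (-1.31 to -0.91), 18 higher and 70 lower, beside 0.764% and 76.1% of all (median -1.64). Over all transcripts run B, not run A, thus had the highest median. Of the 100 unplaced members, 77 were in run A, beside 42.1% of all unplaced transcripts from 0.5 RPKM. The median of the unplaced members in A, B and C was 0.99 (0.64 to 1.20), 1.13 (0.76 to 1.61) and 0.54 (-4.23 to 1.36). Over all unplaced transcripts from 0.5 RPKM it was -0.0097, 1.14 and -1.46. In run B the unplaced members thus stood at the level of all unplaced transcripts. For members on chromosomes the median was -0.56, -0.75 and -1.11. Runs B and C held few of the unplaced members (9 and 14), and a difference between the classes within a run was not tested. Of the 4 clusters with the most members, both on chromosome 1 lay wholly in run C and that on chromosome 3 wholly in run B. The one on chromosome 4 had 3, 4 and 3 members in A, B and C. The part of the runs in the other differences given here was not tested.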

How the data were processed

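The deposited table lists 21993 transcripts with counts, RPKM and coverage for 1 pooled library of each strain. Counts of uniquely mapped reads were deposited per transcript, per the file headers, and RPKM was deposited on the total that each count header gives. Coverage is deposited as a percent of transcript length. Per the submitters' processing notes, the build was galGal4, and TopHat2 2.0.8 and Cufflinks 2.0.2 are named without their roles. Assembly and coding filters are not given in the sources used here. A dash (544 in WRR, 296 in XH) was taken as 0 reads. Starts count from 0 in the table and are printed from 1.

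Members were all rows whose larger RPKM was 50 or more. Log2 ratios used a pseudocount of 0.1 RPKM, which understates the change of low transcripts, and the comparison set was all rows with at least 0.5 RPKM. Folds of single transcripts use no pseudocount. Named transcripts were those of highest RPKM, the most extreme and the most even ratios, the most reads in 1 library only, the lowest coverage, the longest, those nearest the limit, those without reads and the top of the largest clusters. Transcripts outside this rule were named after their values had been seen. Members and rules were chosen with earlier results of these data known. Alternatives used edgeR 4.0.16 (TMM) and DESeq2 1.42.0 (size factors) on the counts for scaling only, and other limits, gaps and subsets. The calculations ran in Python 3.11.15 with scipy 1.17.1 and were tested on simulated data. Muscle and other cell type marker lists were not run, because the table names no gene.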

Additional observations from a re-analysis of the deposited data

How the results depend on the processing

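No paired analysis was possible because WRR and XH have 1 pooled library each. Leaving out a library was not possible either. The runs of serial numbers and the removal of the 2 transcripts with the most reads were chosen after seeing the data. Of 77 alternative values, 25 stayed near the value reported, 48 moved and 4, all median log2 ratios, reversed in sign. Counts were called near within a set fold, but shares and medians only inside their 95% interval. Thus 402 members in place of 502 were near, while 48.7% of reads in WRR in place of 47.9% had moved. The tally therefore does not measure the size of the changes. Their cause was not tested, except that other limits and subsets change the members by construction. Depth limits the ratios of members with few reads in 1 library.

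With a limit of 25 RPKM there were 1481 members, 574 at the limit in both libraries, 162 in WRR only and 745 in XH only, with 177 at least 2-fold higher in WRR, 612 lower and a median log2 ratio of -0.81. Their median length was 583 bases, their median coverage 98.58% in WRR and 99.06% in XH, and they held 58.8% of the WRR reads listed and 45.01% of those of XH. At 100 RPKM there were 200 members, 78 in both and 65 in XH only, with 58 higher and 41 lower in WRR and a median of -0.17. They held 42.1% of the reads in WRR and 22.6% in XH, their median coverage 99.58% in WRR, 54 had an abundant neighbour and 6 clusters had 3 or more members.

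Scaling changed the split most. With XH scaled to the median of all there were 302 members, 127 in both, 151 in WRR only and 24 in XH only. TMM gave 218 in WRR only and 61 in XH only, and size factors gave 222 in WRR only and 59 in XH only. With the members kept, 163 (centred), 159 (TMM) and 163 (size factors) exceeded 2-fold on the WRR side and 57, 59 and 58 on the XH side, and the median log2 ratio reversed to 0.24, 0.20 and 0.24. It also reversed to 0.46 in run A alone, and was -1.07 in run C alone.

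Without unplaced scaffolds, 33 members were at the limit in WRR only, 40 exceeded 2-fold on the WRR side and the median log2 ratio was -0.85. Without the 10 transcripts of most reads, the other members held 26.4% of the listed reads that remained in WRR and 21.7% in XH. Of all listed reads they held 18.7% in WRR, against 19.3% in XH, so the direction turned with the denominator. Without the first 2 the share of the remaining listed reads was 33.6% in WRR and 27.1% in XH. With overlapping intervals counted once, the share of the reads of the entries kept was 48.7% in WRR and 31.0% in XH. Without transcripts under 250 bases the median length was 583 bases. A pseudocount of 1 RPKM left both 2-fold counts and the median near those reported. Cluster gaps of 5 or 50 kb did so for the members with an abundant neighbour and for the clusters of 3 or more, but with 50 kb the cluster of most members became the one of 20 on chromosome 1, in place of that of 11.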
